A study of Mus musculus with 12 samples.

Results

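The 38 genes of cell division and DNA replication were followed in the auditory nerve of the mouse over the first 3 weeks after birth. They were chosen by name: 13 genes that license and copy DNA, 20 that act in mitosis and 5 that open the cell cycle in G1. All 38 were among the 18193 genes that have a probe set with a single gene symbol, and each was read on its probe set with the highest mean over all arrays. The samples came from CBA/CaJ mice, with 2 animals a stage: P0 (the day of birth), P3, P7, P10, P14 or P21. The labels name no transgene or treatment in any group. The paper states that both sexes were used in the study, and the sex of single animals is not given here. Each of the 12 arrays (Affymetrix mouse expression arrays, whose probes lie near the 3′ end of the RNA) held RNA of the modiolus from both cochleas of 1 mouse, so the arrays of a stage are separate animals. The dissection left some of the sensory epithelium and the tissue around the nerve in place, so the samples were enriched for nerve but not pure.

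A cell that divides passes a gate in G1, copies its DNA in S phase and separates the copies in mitosis. D cyclins and E cyclins release E2F factors from the retinoblastoma proteins, and E2F then switches on the genes for copying DNA. Origins are licensed by Cdc6 and Cdt1, which load the ring of Mcm2 to Mcm7 proteins, and geminin (Gmnn) blocks a repeat of that step. The genes of mitosis come on later, under the control of the DREAM and B-Myb complexes and Foxm1, which act on an element called CHR near the start site. Their promoters often hold CCAAT boxes as well. In the newborn cochlear nerve the Schwann cells and satellite glia still divide, whereas the spiral ganglion neurons have left the cycle before birth. Bulk tissue cannot tell fewer dividing cells from less RNA per cell.

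The promoters show the letters that these background accounts refer to. RefSeq start sites (GRCm38.p6) were at hand for 29 of the 38 genes, and the 250 bases before each start were searched on both strands. The E2F letters were TTTCCCGC or TTTGGCGC or TTTCGCGC or TTTGCCGC, the CHR letters were TTTGAA or TTCGAA, and the box was CCAAT. E2F letters stood before 4 of 11 replication genes (Cdc6, Mcm5, Mcm6 and Mcm7), 1 of 16 mitosis genes (Cdk1) and 0 of 2 G1 genes, against 1.9% of all 32851 windows. CHR letters together with a CCAAT box stood before 7 of 16 mitosis genes (Bub1b, Ccnb2, Cdc20, Cdk1, Mki67, Prc1 and Top2a) and 2 of 11 replication genes, against 6.0% of all windows. A CCAAT box was found before 13 of 16 mitosis genes and 8 of 11 replication genes, against 33.8% of all windows. These are matches of letters, with no test and no evidence here that a factor binds them. The 110 bases before the start of Mcm6 are shown for its E2F letters, those of Cdk1 and Cdc20 for a CHR beside CCAAT boxes, and those of Ccnb2 for its 3 CCAAT boxes, whose first bases lie 33 bases apart. Capitals mark the E2F letters in Mcm6, the CHR letters and CCAAT boxes (ATTGG on the other strand) in Cdk1 and Cdc20, and the CCAAT boxes in Ccnb2, whose CHR letters lie farther upstream. Each sequence is written on its gene's own strand, and all 4 genes lie on the minus strand.
Mcm6 (chr1:128359706-128359815): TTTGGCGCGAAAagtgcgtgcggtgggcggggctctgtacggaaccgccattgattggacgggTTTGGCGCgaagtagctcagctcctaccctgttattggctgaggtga
Cdk1 (chr10:69352913-69353022): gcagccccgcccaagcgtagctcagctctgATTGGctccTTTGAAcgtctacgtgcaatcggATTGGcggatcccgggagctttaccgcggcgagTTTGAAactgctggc
Cdc20 (chr4:118437344-118437453): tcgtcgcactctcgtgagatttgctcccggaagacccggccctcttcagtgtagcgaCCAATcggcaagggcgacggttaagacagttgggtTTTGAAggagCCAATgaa
Ccnb2 (chr9:70421555-70421664): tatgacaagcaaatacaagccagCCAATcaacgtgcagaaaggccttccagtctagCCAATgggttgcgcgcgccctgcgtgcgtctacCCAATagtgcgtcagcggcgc
In Mcm6 the E2F letters began 110, 106 and 47 bases before the start, the first pair overlapping on opposite strands. In Cdk1 the CHR letters began 71 and 15 bases before the start and the CCAAT boxes 80 and 48 bases before it.

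The values are log2 RMA values, on which 1 unit is a doubling. A gene was called lower or higher when its adjusted p in limma was under 0.05 (Benjamini-Hochberg over all 45037 probe sets) and its fold was over 1.5. A fold compares 1 probe set between stages, and the level of one probe set is never set against that of another. Neuronal and glial markers were present: all 9 neuronal genes and all 7 Schwann cell and myelin genes measured stood above the lowest 25% of values on all 12 arrays. All 5 bone genes and all 8 fibroblast genes measured did so too, so this bar does not tell nerve from other tissue. Other tissue was present too. The summed level (values taken off the log2 scale and added) of 5 bone genes was 27.3 to 42.0 times its P0 mean at P14 and P21, and that of 8 genes of the supporting cells and sensory epithelium was 0.0907 to 0.154 of it. Beside the fall of the members, the summed level of 8 fibroblast genes was 0.631 to 0.642 of its P0 mean at P21, that of 8 cartilage genes 0.428 to 0.432 and that of 8 endothelial genes 0.521 to 0.617. The cartilage genes went both ways. Col2a1 read 13.62 and 13.61 at P0 and 11.42 and 11.70 at P21, and Col9a1 was lower too. Acan read 8.17 and 7.38 at P0 and 10.21 and 10.57 at P21, and Hapln1 and Chad were higher too. The part of these tissues in the members' fall was not tested. Tyms, thymidylate synthase, lay in the lowest 25% of values on both arrays of every stage (4.14 to 5.03), so no level could be read for it. Another probe set of Tyms was called lower at P10 and P21 (adjusted p = 0.000224 at P21), but at 3.81 to 5.04 it too stayed under the lowest 25th percentile of any array (5.06), so no fold is given. None of the other 37 members lay that low on both arrays of a stage.

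By P21 nearly all members were lower than at birth, while at P3 the share called was near that of all probe sets. Both P21 arrays also differed from the other arrays in the 3′ to 5′ balance of control RNA. Leaving out 1 array cannot show the effect of a difference that both share, and its part in the falls at P21 was not tested. Against P0 limma called 1 of 38 lower at P3, where 2.8% of all probe sets were, 13 at P7 (5.68% of all), 27 at P10 (10.1%), 19 at P14 (11.3%) and 35 at P21 (14.9%), and called 0 of 38 higher in any of these, where 0.981%, 5.44%, 9.24%, 10.2% and 12.4% of all probe sets were (0 at an unadjusted p under 0.05 and 0 by the t-test of the study's methods). The median log2 difference of the 38 from P0 was -0.62, -1.14, -1.47, -1.08 and -2.16 in the same order, while that of all probe sets stayed between -0.01 and 0.04. Over the 6 stages together, limma's F-test called 34 of 38, against 38.3% of all probe sets. Cdc6, Ccne1, Foxm1 and Tyms were the 4 not called there. Both P7 arrays lay below both P0 arrays for 38 of 38 members, as for 31% of all probe sets, and the same held at P10 (33.6% of all) and at P21 (32.6%). At P3 it held for 25 of 38 (22.9% of all) and at P14 for 30 of 38 (34.6%). P0 was the highest stage mean for 35 of 38, the others being Ccnd1, Ccne1 and Ccne2, and P21 was the lowest for 32.

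**Figure D1:**
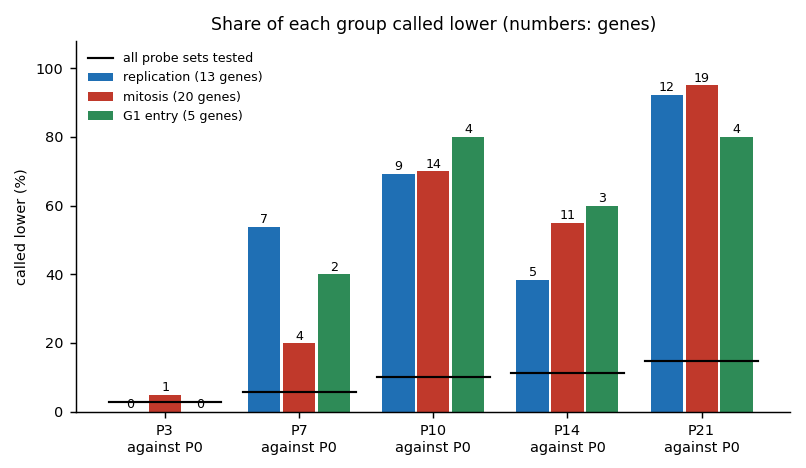
Bars give the percent of the 13 replication, 20 mitosis and 5 G1 genes called lower than at P0 at each later stage, with the number of genes above each bar, and the black line gives the percent of all probe sets tested. At P7 the threshold was passed by 7 of 13 replication genes and 4 of 20 mitosis genes, a split that moved with the arrays fitted, and at P21 all but 1 gene of each of the 3 groups were.

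Among the genes that copy DNA, the Mcm helicase subunits fell together. The Mcm6 probe set read 11.46 and 11.48 at P0, 10.73 and 11.12 at P3, 9.68 and 10.03 at P7, 9.45 and 9.45 at P10, 10.35 and 9.15 at P14 and 8.81 and 9.04 at P21. It was already below the P0 arrays in both P3 mice, and it stood 5.84-fold lower at P21 (log2 fall 2.54 ± 0.31 SE, adjusted p = 0.000126). Mcm5 read 11.07 and 10.87 at P0, 10.38 and 10.69 at P3, 9.75 and 9.92 at P7, 9.39 and 9.51 at P10, 10.77 and 9.07 at P14 and 8.48 and 8.80 at P21. One P14 array of Mcm5 came back close to the P0 values while the other was below every P10 array, and at P21 the gene was 5.03-fold lower (adjusted p = 0.00118). Mcm3 was 4.41-fold lower at P21, Mcm2 3.36-fold, Mcm7 2.41-fold and Mcm4 2.28-fold, with adjusted p from 0.000185 to 0.00301. By P7, Mcm2, Mcm3, Mcm4 and Mcm6 were called lower (2.07-fold to 3.06-fold), while Mcm5 (adjusted p = 0.0901) and Mcm7 (adjusted p = 0.0681) were not. On the probe sets read, Mcm4 alone of the Mcm genes was lower at P10 (9.83 and 9.65) than at P21 (9.97 and 9.90). The other Mcm4 probe set went the other way, with 9.64 and 9.59 at P10 and 9.43 and 9.43 at P21.

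The loading factors and their brake moved by different amounts. Cdc6, which brings the Mcm ring to origins, read 7.85 and 7.49 at P0, 6.85 and 7.12 at P3, 6.13 and 6.17 at P7, 6.52 and 6.44 at P10, 8.12 and 6.03 at P14 and 5.82 and 5.54 at P21. Its P14 replicate 1 was above both P0 arrays and its replicate 2 below both P7 arrays, and it was called lower at P21 alone (3.97-fold, adjusted p = 0.00831). Cdt1, its partner in loading, was called lower at P7, P10 and P21, at P21 by 3.6-fold (adjusted p = 0.00143), and read 10.46 and 9.10 at P14. Geminin, which binds Cdt1, had its fall early: Gmnn read 9.73 and 9.63 at P0, 9.19 and 9.63 at P3, 8.91 and 8.78 at P7, 8.99 and 9.06 at P10, 9.80 and 9.08 at P14 and 9.08 and 9.10 at P21. It was 1.78-fold lower at P7 (adjusted p = 0.0225) and 1.505-fold at P21 (adjusted p = 0.0463), just past the fold limit.

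The genes that clamp and feed the copying machinery passed the threshold at different stages. Pcna, the sliding clamp of the polymerases, read 12.09 and 12.06 at P0, 11.89 and 12.15 at P3, 11.77 and 11.65 at P7, 12.04 and 11.85 at P10, 12.18 and 11.54 at P14 and 11.12 and 11.18 at P21. Its arrays stayed between 11.54 and 12.18 through P14, and only at P21 was it called lower (1.9-fold, adjusted p = 0.00251). Rrm1, the large subunit of ribonucleotide reductase, was called lower from P7 on and was 2.31-fold lower at P21 (adjusted p = 0.00137). Rrm2, the small subunit that limits the supply of DNA building blocks in S phase, read 10.79 and 10.64 at P0, 9.76 and 10.56 at P3, 9.75 and 9.74 at P7, 9.61 and 9.58 at P10, 11.16 and 9.25 at P14 and 8.48 and 8.62 at P21. It was highest of all 12 arrays in P14 replicate 1, and was called lower at P21 alone (4.49-fold, adjusted p = 0.00433). At P10 Rrm2 was already 2.17-fold lower but not called (limma adjusted p = 0.1065), while Rrm1 was called at 2.08-fold. The SE of the log2 difference was 0.47 for Rrm2 and 0.22 for Rrm1.

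**Figure D2:**
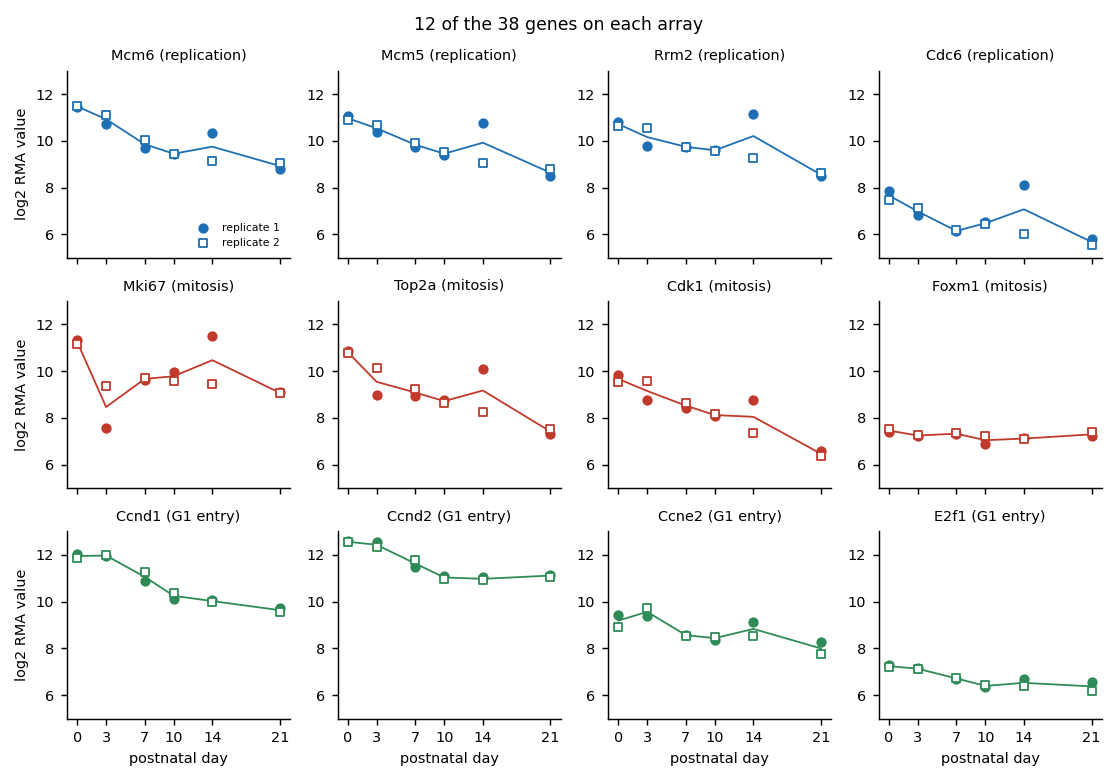
Log2 RMA values of 12 of the 38 genes against postnatal day, with filled circles for replicate 1, open squares for replicate 2 and a line through the stage means, on the same vertical axis. P3 replicate 1 of Mki67 and Top2a lies below replicate 2, P14 replicate 1 of Rrm2, Cdc6 and Mki67 lies above the P0 arrays, and the Ccnd1 and Ccnd2 arrays of a stage lie close together.

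The mitosis genes had the deepest falls of the set. Bub1, a kinase of the spindle checkpoint, read 9.49 and 9.04 at P0, 7.71 and 9.12 at P3, 7.39 and 7.94 at P7, 7.07 and 7.16 at P10, 8.33 and 6.63 at P14 and 5.68 and 5.66 at P21. At P21 it was 12.1-fold lower (log2 fall 3.595 ± 0.53 SE, adjusted p = 0.000397), the largest of the 38. Melk, a kinase of dividing progenitors, read 8.96 and 8.69 at P0, 7.51 and 8.68 at P3, 6.96 and 7.35 at P7, 6.29 and 6.36 at P10, 7.07 and 5.73 at P14 and 5.37 and 5.38 at P21. Its fall of 10.9-fold by P21 (adjusted p = 0.000129) was preceded by calls at P7, P10 and P14. Top2a, the topoisomerase that untangles sister chromatids, read 10.86 and 10.77 at P0, 8.97 and 10.12 at P3, 8.93 and 9.25 at P7, 8.78 and 8.66 at P10, 10.10 and 8.25 at P14 and 7.30 and 7.54 at P21, and was 10.5-fold lower at P21 (adjusted p = 0.000431).

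The cyclins and kinases that drive entry into mitosis followed. Cdk1, the master kinase of mitosis, read 9.82 and 9.52 at P0, 8.75 and 9.56 at P3, 8.41 and 8.65 at P7, 8.07 and 8.18 at P10, 8.75 and 7.35 at P14 and 6.58 and 6.36 at P21. It was 9.19-fold lower at P21 (log2 fall 3.20 ± 0.38 SE, adjusted p = 0.00012), and P3 replicate 2 still lay within its P0 arrays. Its partner Ccnb2, a B cyclin, read 9.87 and 9.65 at P0, 8.08 and 9.67 at P3, 8.40 and 8.51 at P7, 8.29 and 8.41 at P10, 9.63 and 7.75 at P14 and 7.00 and 6.95 at P21, and was 6.89-fold lower at P21 (adjusted p = 0.00271) but not called at any earlier stage. Ccna2, the A cyclin of S and G2, was 5.46-fold lower at P21, Aurka, the kinase of the spindle poles, 3.14-fold, and Plk1, a polo kinase, 4.44-fold. Plk1 was called lower at every stage from P7 on, and at P3 it stayed short of the threshold (adjusted p = 0.182).

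Genes of the kinetochore, the chromosome passengers and the central spindle fell as well. Aurkb, Birc5 and Cdca8 encode 3 proteins of the passenger complex, and were 7.81-fold, 7.18-fold and 5.72-fold lower at P21 (adjusted p from 0.00125 to 0.00193). Aurkb read 9.02 and 8.67 at P0, 7.28 and 8.78 at P3, 6.94 and 7.55 at P7, 6.60 and 6.82 at P10, 7.75 and 6.25 at P14 and 5.61 and 6.15 at P21. The centromere histone gene Cenpa was 6.75-fold lower at P21, the kinetochore motor Cenpe 5.68-fold, and the checkpoint and anaphase genes Bub1b and Cdc20 3.17-fold and 4.24-fold. The spindle genes Tpx2, Nusap1 and Prc1 were 7.04-fold, 6.17-fold and 4.71-fold lower. Cenpa, Birc5, Aurka and Ccnb2 reached the threshold at no stage before P21, although both of their arrays lay below P0 at P7 and P10.

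Mki67 and Foxm1 did not follow the other mitosis genes. Cenpe shared part of the Mki67 course, with a stage mean of 6.61 at P3, 7.265 at P7 and 6.88 at P10. Mki67, the proliferation marker Ki-67 of the chromosome surface, read 11.34 and 11.18 at P0, 7.56 and 9.38 at P3, 9.64 and 9.70 at P7, 9.97 and 9.60 at P10, 11.49 and 9.45 at P14 and 9.10 and 9.05 at P21. It was the one member called lower at P3 (6.92-fold, adjusted p = 0.0311), where replicate 1 was the lowest of all 12 arrays, and it was not called at P7, P10 or P14. Its P14 replicate 1 was above both P0 arrays, and at P21 it was 4.55-fold lower (adjusted p = 0.0175). Foxm1, a transcription factor that turns on G2 genes, read 7.42 and 7.51 at P0, 7.21 and 7.29 at P3, 7.31 and 7.35 at P7, 6.87 and 7.23 at P10, 7.15 and 7.09 at P14 and 7.21 and 7.39 at P21. On this probe set all arrays lay between 6.87 and 7.51 and the fold limit was passed nowhere. At P21 its log2 difference was -0.17 ± 0.13 SE (adjusted p = 0.335). Another Foxm1 probe set read 5.92 and 6.53 at P3 and was 1.29-fold lower at P10 (limma adjusted p = 0.234). A further one was 1.485-fold lower at P10 (limma adjusted p = 0.00628), just short of the fold limit.

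On the probe sets read here, the D cyclins fell with little difference between the mice of a stage. At P3 the widest gaps were on other probe sets, 10.00 and 9.32 for Ccnd1 and 7.56 and 6.49 for Ccnd2. A further Ccnd1 probe set went the other way there (10.95 and 11.39). Ccnd1, the D cyclin that responds to growth factors, read 12.02 and 11.87 at P0, 11.96 and 11.97 at P3, 10.86 and 11.25 at P7, 10.12 and 10.37 at P10, 10.07 and 9.97 at P14 and 9.71 and 9.55 at P21. Its P3 arrays were at the P0 level, and it then fell in each stage mean, to 3.25-fold lower at P10 (adjusted p = 2.79e-05) and 4.98-fold lower at P21 (adjusted p = 2.54e-06). Ccnd2, a second D cyclin, read 12.58 and 12.53 at P0, 12.53 and 12.32 at P3, 11.47 and 11.78 at P7, 11.08 and 10.98 at P10, 11.04 and 10.90 at P14 and 11.15 and 11.07 at P21. On this probe set it was 2.88-fold lower at P10 (adjusted p = 2.48e-05), and its 6 arrays from P10 on lay between 10.90 and 11.15. The other 6 probe sets of Ccnd2 were lower still at P21 (3.82-fold to 5.52-fold) than at P10 (2.52-fold to 3.10-fold). E2f1, the activator that the D cyclins set free, was 1.8-fold lower at P10 (adjusted p = 0.00171) and 1.82-fold lower at P21 (adjusted p = 0.000932). The E cyclins were the weaker pair: Ccne2 read 9.44 and 8.93 at P0, 9.39 and 9.73 at P3, 8.59 and 8.54 at P7, 8.37 and 8.50 at P10, 9.14 and 8.52 at P14 and 8.25 and 7.74 at P21 and was 2.28-fold lower at P21 (adjusted p = 0.00296), whereas Ccne1 was called at no stage (1.52-fold at P21, adjusted p = 0.0814). Another probe set of Ccne1 was called lower at P21 (1.84-fold, adjusted p = 0.0327).

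The order of the groups was read from each mouse as the median, over a group, of the log2 value less the gene's own P0 mean. At P7 these medians were -1.14 and -0.98 for replication, -1.46 and -1.23 for mitosis and -0.60 and -0.65 for G1 entry. At P10 they were -1.15 and -1.23 for replication, -1.63 and -1.51 for mitosis and -0.89 and -0.80 for G1 entry. At P21 they were -1.84 and -1.66, -2.59 and -2.67, and -0.94 and -1.45. The mitosis median was therefore below the replication median in both mice at P7, P10, P14 and P21, by 0.25 to 1.01 log2 units. At P3 it was 0.68 below in replicate 1 and 0.12 above in replicate 2, so no order could be read there. The spread of this difference between mice of a stage was 0.26 (SD over the 6 stages). These are descriptions with no test.

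**Figure D3:**
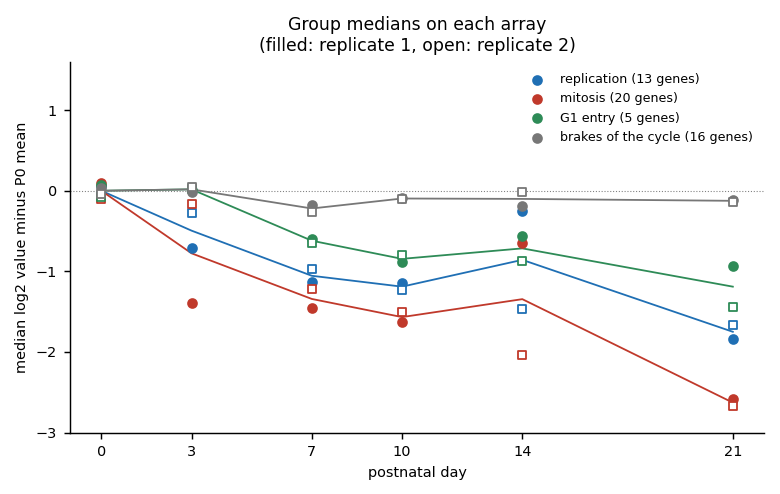
Median over each group of the log2 value minus the gene's P0 mean, against postnatal day, with filled circles for replicate 1, open squares for replicate 2 and a line through the mean of both. The mitosis medians reach -2.59 and -2.67 at P21, the median of the 16 genes that hold back the cycle stays near 0 although single genes lie between -2.31 and 1.45, and the arrays of P3 and P14 are far apart for mitosis.

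At P7 and P10 the replication genes had covered a larger median share of their fall than the mitosis genes, a description with no test. Over the 12 replication genes called lower at P21, the median share of the log2 fall from P0 to P21 that had been covered was 64.0% at P7 and 77.5% at P10. Over the 19 mitosis genes it was 50.8% and 64.9%, and over the 4 G1 genes 56.4% and 85.6%. At P3 the order was the other way, with 31.3% for replication and 34.1% for mitosis (42.0% and 57.6% in replicate 1, 17.7% and 4.57% in replicate 2), and at P14 the medians were 53.1% and 50.6%. Single genes spanned 39.5% (Pcna) to 142% (Gmnn) at P7 among replication genes and 33.0% (Cenpa) to 75.1% (Plk1) among mitosis genes. The shares of one stage use the same P0 and P21 arrays for all genes. On the P21 arrays the 3′ to 5′ balance of RNA also differed, since the log2 value of the Actb 3′ control less the 5′ control was 2.32 and 2.03 there and 0.81 to 1.41 on the other 10 arrays. For Gapdh it was 1.65 and 1.37 against 0.18 to 0.68. The part of this balance in the values at P21 was not tested.

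From one stage to the next, most single steps were too small for the spread. From P3 to P7 limma called 4 of 38 lower, against 3.98% of all probe sets: Ccnd1 (1.88-fold, adjusted p = 0.00279), Ccnd2 (1.74-fold, adjusted p = 0.00279), Ccne2 (1.99-fold, adjusted p = 0.0216) and Mcm6 (2.10-fold, adjusted p = 0.0426). From P7 to P10 limma called 0 of 38 lower (0.127% of all probe sets), with 2 at an unadjusted p under 0.05, Ccnd1 and Ccnd2, and the methods' t-test called 0. From P10 to P14 it called 0 of 38 and 0% of all probe sets lower, with 0 members lower and 1 higher (Mcm4) at an unadjusted p under 0.05, and again 0 by the t-test. Without P14 replicate 2, 2 members (Mcm5 and Cdc6) were called higher at P14 than at P10. From P14 to P21 it called 0 of 38 (1.73% of all), with 25 at an unadjusted p under 0.05 and 0 by the t-test. Without P14 replicate 2 that last count was 25, without either P3 array it was 2, and without the other arrays it stayed at 0. Without P7 replicate 1 the count from P7 to P10 was 1 (Ccnd1). The count from P3 to P7 was 2 without P3 replicate 2 or either P7 array and 8 without either P14 array. The call of Mcm6 was lost with the replicate number as a block (adjusted p = 0.0553) and without any single array of P0, P3, P7, P10 or P21 (adjusted p from 0.0505 to 0.236), and that of Ccne2 without P3 replicate 2 or either P7 array (adjusted p from 0.0822 to 0.123).

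The mice of P3 differed mostly in the mitosis genes. P3 replicate 1 was below replicate 2 by over 1.5-fold in 19 of 20 mitosis genes, 1 of 13 replication genes (Rrm2) and 0 of 5 G1 genes, against 1.38% of all probe sets. The median log2 gap was -1.30 for mitosis, -0.31 for replication and -0.01 for G1 entry. The widest was Mki67, at 7.56 and 9.38, followed by Ccnb2, at 8.08 and 9.67, and Plk1, at 6.81 and 8.36. In 11 of 20 mitosis genes replicate 1 was even below both P7 arrays. The same held in 1 of 13 replication genes (Tyms, for which no level could be read) and in 36.1% of all probe sets. Replicate 2 lay within the P0 arrays or above them in 7 of 20 mitosis genes: Ccnb2, Cdk1, Bub1, Aurka, Aurkb, Cenpa and Birc5, against 66.2% of all probe sets. A further 43 mitosis genes outside the set had the same gap in 33, and 33 further replication genes in 2. Of the blood-forming lists at P3, 0 of 11 neutrophil and marrow myeloid genes, 2 of 7 erythroid genes and 0 of 9 B cell precursor genes were lower in replicate 1 by over 1.5-fold, and 4 of the 11 were higher. The part of these lists in the gap was not tested. The single call at P3 rests on these arrays: the count was 0 without P3 replicate 1, 4 without P3 replicate 2, 0 without either P0 or either P10 array, and 6 without either P14 array.

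The mice of P14 differed in both groups. Replicate 1 was above replicate 2 in 38 of 38 members, by over 1.5-fold in 19 of 20 mitosis genes, 11 of 13 replication genes and 2 of 5 G1 genes (Ccne1 and Ccne2), against 2.26% of all probe sets. The median log2 gap was 1.45 for mitosis, 1.03 for replication and 0.31 for G1 entry, and the widest were Cdc6 (2.09), Mki67 (2.04), Birc5 (1.92) and Rrm2 (1.91). Ccnd1 (10.07 and 9.97), Ccnd2 (11.04 and 10.90) and Foxm1 (7.15 and 7.09) showed almost none of it. Tyms was too low on both arrays for its gap to be read. Replicate 1 was above both P10 arrays in 34 of 38 members (30.5% of all probe sets), and above both P0 arrays in Pcna, Rrm2, Cdc6, Gmnn and Mki67 (37.3% of all probe sets). Replicate 2 was below both P10 arrays in 32 of 38 (35.4% of all probe sets). Without P14 replicate 1 the fit called 33 of 38 lower than at P0 (11 replication, 19 mitosis and 3 G1 genes), and without P14 replicate 2 it called 7. Without P0 replicate 1 it called 7 and without P0 replicate 2 it called 10.

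**Figure D4:**
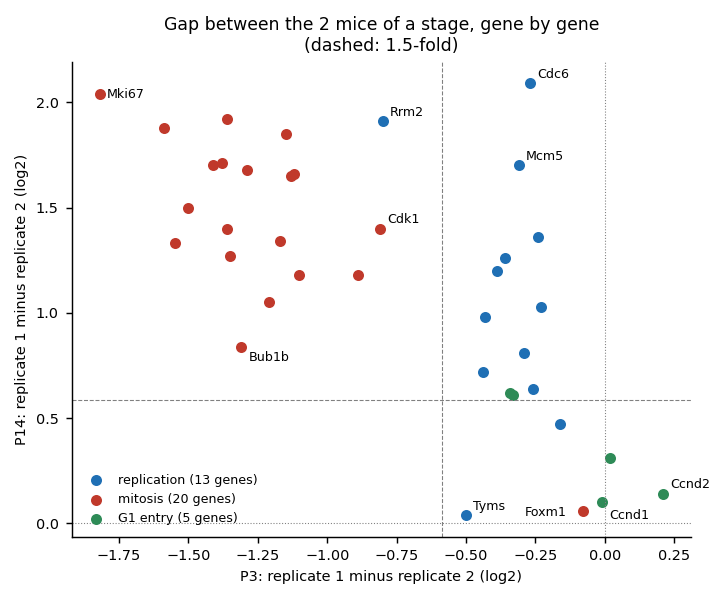
Each point is 1 of the 38 genes, placed by the log2 gap between replicate 1 and replicate 2 at P3 (horizontal) and at P14 (vertical), with dashed lines at 1.5-fold. Mitosis genes are spread out at the upper left, all but Foxm1, replication genes are shifted at P14 but, except Rrm2, within 1.5-fold at P3, and Ccnd1 and Ccnd2 lie within 0.21 of 0 on both axes.

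Most blood-forming markers were highest on the same P14 array. The summed level of 11 neutrophil and marrow myeloid genes was 30.3 times its P0 mean in P14 replicate 1 and 6.61 times in replicate 2. All 11 were over 1.5-fold higher in P14 replicate 1 than in replicate 2, as were 5 of 7 erythroid genes and 5 of 9 B cell precursor genes. Mpo, the myeloperoxidase of granulocyte precursors, read 10.56 and 8.05 at P14, Klf1, the erythroid transcription factor, 10.10 and 8.17, and Vpreb1, a surrogate light chain of B cell precursors, 9.89 and 8.65. The genes of these lists that were not highest on that array were Ebf1 (10.80 and 10.82 at P14), Pax5 (5.19 and 5.10) and Hba-a1 (4.23 and 4.56). Of the defining markers, Hba-a1 lay in the lowest 25% of values on all 12 arrays and Epb42 on 9. The summed level of 7 erythroid genes was 5.13 and 2.88 times its P0 mean at P14, and that of 9 B cell precursor genes 1.57 and 0.938 times. The B cell sum holds Ebf1, which was lower at P14 than at P0 (11.28 and 11.53). The median over the 9 B cell genes at P14 was 1.195 and 0.44 log2 units above the P0 mean. Neuronal and Schwann cell sums differed little between these mice (replicate 1 over replicate 2 was 1.005 and 0.930). The summed myeloid level was 6.15 to 11.6 times its P0 mean at P10 and 6.93 to 8.55 times at P21. The part of blood-forming cells in the values of the cycle genes at P14 was not tested.

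**Figure D5:**
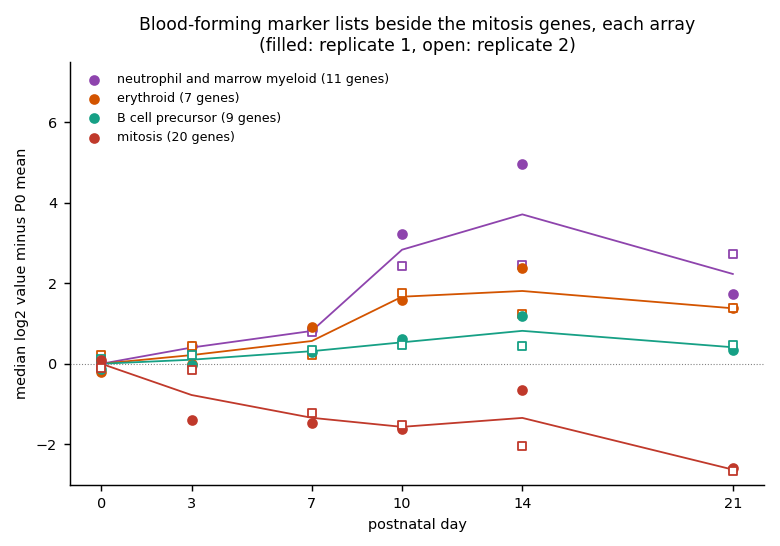
Median over 3 lists of blood-forming markers and over the 20 mitosis genes of the log2 value minus the gene's P0 mean, against postnatal day, with filled circles for replicate 1, open squares for replicate 2 and a line through the mean of both. P14 replicate 1 holds the highest point of all 3 marker lists, and the mitosis median of the same array (-0.65) is above that of replicate 2 (-2.04).

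The counts at P7 and P10 depended on which mice entered the fit. At P7 the 13 calls against P0 became 4 without either P0 array, 3 without P7 replicate 1, 7 without P7 replicate 2 and 27 without either P14 array. The split between 13 replication and 20 mitosis genes, 7 and 4 in the fit of all arrays, was 7 and 10 without either P3 array, 11 and 14 without either P14 array, 9 and 11 with array weights and 11 and 19 with the 4 arrays of P0 and P7 alone. So no order of the groups could be read from the P7 counts. At P10 the 27 calls became 9 without P0 replicate 1, 9 without P10 replicate 1 and 16 without P10 replicate 2. With P3 replicate 1 and P14 replicate 1 both left out, a setting chosen after the data were seen, the fit called 32 of 38 lower at P7 (11 replication and 19 mitosis genes) and 34 at P10. At P21 the count lay between 32 and 35 without any single array. The F-test over 6 stages called 17 and 20 without P0 replicate 1 or 2, and 20 and 18 without P21 replicate 1 or 2.

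Other genes of the same machinery moved alike. Of 33 further replication genes, 22 were called lower at P10 and 0 higher (median log2 difference -1.01), and of 43 further mitosis genes 32 were lower and 0 higher (median -1.33), where 10.1% of all probe sets were called lower and 9.24% higher and their median was -0.01. The largest were Dtl (4.96-fold), a subunit of the ligase that destroys Cdt1, Uhrf1 (4.11-fold), which keeps DNA methylation through copying, Hells (3.88-fold), a chromatin remodeller, and Chek1 (3.19-fold), a checkpoint kinase. For mitosis they were the kinesins Kif2c (5.35-fold) and Kif20a (4.86-fold), Racgap1 (4.98-fold), which acts at the cleavage furrow, and Sgol2a (4.38-fold), a guardian of centromere cohesion. Of 16 genes that hold back the cycle, 4 were called lower and 1 higher at P10 (median -0.09), against 10.1% and 9.24% of all probe sets. Cdkn1a, the inhibitor p21, read 10.94 and 11.05 at P0, 11.46 and 11.38 at P3, 12.40 and 12.23 at P7, 12.30 and 12.44 at P10, 12.06 and 12.04 at P14 and 11.81 and 11.89 at P21. It was the one gene of these 3 lists called higher at P10 (2.59-fold, adjusted p = 1.39e-05), and its P0 arrays were its lowest. Cdkn1c, the inhibitor p57, read 12.47 and 12.39 at P0, 12.60 and 12.20 at P3, 11.42 and 11.28 at P7, 10.42 and 10.82 at P10, 10.12 and 10.24 at P14 and 10.49 and 10.22 at P21, and was 3.51-fold lower at P10 (adjusted p = 5.17e-05). Rbl1, a relative of the retinoblastoma protein, was 2.20-fold lower at P10 and Btg1, which restrains growth, 1.66-fold.

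Several probe sets of a member did not always move together. Of the 28 members with more than 1 probe set, 15 had all of them called lower at P21, 12 had some called and some not, and in 3 (Aurka, Tpx2 and Tyms) the signs differed. No probe set of any member was called higher at P10 or P21. Tpx2 was lower on 2 probe sets (7.04-fold and 6.15-fold) and flat on 2 (log2 differences of 0.18 and -0.21), and Top2a was lower on 1 of 3 (10.5-fold, against log2 differences of -0.37 and -0.08). Aurka had a probe set that differed by 0.39 upward at P21, with a fold of 1.31, under the limit.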

How the data were processed

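The RNA of 12 mice, each array holding the pooled cochleas of 1 animal, was hybridised to Affymetrix mouse 3′ expression arrays. The authors summarised the probes by RMA in Expression Console, and the deposited values are on the log2 scale. The file holds 45101 probe sets, of which 64 controls were left out, and 0 columns of other samples. All 12 arrays were fitted in 6 stage groups with limma 3.58.1 in R 4.3.3 (6 residual and 4.03 prior degrees of freedom), with Benjamini-Hochberg adjustment of p over 45037 probe sets. The fit was tested on simulated data. Probe sets were named by the platform annotation, and 9160 have no symbol there. The members and gene lists were chosen with earlier results of these data known. All members are named, with up to 4 called genes by size of change at P10 from each further cycle list. With 2 mice a stage, precision is limited by their number, and scan batches were not given in the sources used here. Alternatives were a replicate block, an intensity trend, array weights, no dim probe sets, a shared array median, the mean of a gene's probe sets, 4 arrays alone, the methods' t-test, no fold limit and each array left out.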

Additional observations from a re-analysis of the deposited data

How the results depend on the processing

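Counts of members lower than at P0 moved over 1.5 times as follows. At P3 (1 member) the count was 2 with an intensity trend or the mean of a gene's probe sets, 0 with 4 arrays alone and 0 by the methods' t-test, adjusted or not. At P7 (13) it was 22 with array weights, 20 with the mean of probe sets, 32 with 4 arrays alone, and 28 by the methods' t-test but 0 after Benjamini-Hochberg. That adjusted t-test gave 1 at P10 (27), 0 at P14 (19, with 3 unadjusted), 0 at P21 (35) and 0 from P3 to P7 (4). From P7 to P10 (0) the count was 2 with a trend or array weights and 1 with the mean of probe sets, and from P14 to P21 (0) it was 2 with a trend. With P3 replicate 1 and P14 replicate 1 both left out, a setting chosen after the data were seen, the counts were 2 at P3, 32 at P7, 33 at P14 and 27 from P3 to P7.

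Leaving out 1 array gave 0 to 6 members lower at P3, 3 to 27 at P7, 9 to 34 at P10, 7 to 33 at P14, 32 to 35 at P21, 2 to 8 from P3 to P7, 0 to 1 from P7 to P10, 0 from P10 to P14, 0 to 25 from P14 to P21, and 17 to 35 by the F-test. The mitosis minus replication median at P3 ranged from -0.68 to 0.12, the latter without P3 replicate 1 alone or with P14 replicate 1. In the same settings Pcna (0.075), Cenpa (0.075) and Birc5 (0.010) turned above P0 at P3. Ccnd1 turned below it with the mean of probe sets (-0.0233) or without P0 replicate 2 (-0.055), as did Ccne1 without that array (-0.095). The cause was not tested.

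With the replicate number as a block the counts were 1 at P3, 10 at P7, 26 at P10, 17 at P14, 34 at P21, 3 from P3 to P7, 0 in the later steps and 32 by the F-test. The numbers were not taken as pairing the mice, since replicate deviations correlated between -0.125 and 0.317 over 15 pairs of stages, 6 of them over 0.1.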
